A study of Mus musculus with 6 samples.

Results

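Genes of Schwann cells, myelin and growing axons were examined in mouse cornea, namely Mbp, Pmp22, Prx, Ncmap, Mag, Sox10, Cdh19 and Gap43. They were chosen by name, and all 8 of 8 were found among the 22007 gene symbols of the count tables. The corneas came from male C57BL/6J mice. In the OFBI (open-field blast injury) group, awake mice had been exposed once to the detonation of 350 g of the explosive C-4 from 3 m away, and the corneas were taken 12 months later. The Naive group carries the same label of 12 months, and its labels name no blast or sham treatment. Each group had 3 libraries, each made from pooled corneas, and neither the ages of the mice nor the number of corneas in a pool is given in the sources used here. All 6 libraries carry the batch label 4, so no comparison within other batches could be made.

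The cornea is densely supplied by sensory axons of the trigeminal nerve. Schwann cells wrap these axons with myelin near the corneal rim, and further in they accompany them through the stroma without myelin. The transcription factor Sox10 specifies the Schwann cell lineage and drives its myelin genes. Compact myelin holds the proteins encoded by Mbp and Pmp22, whereas Mag, Prx and Ncmap encode proteins of non-compact Schwann cell membranes. The cell bodies of the sensory neurons lie outside the cornea. In pooled tissue, fewer cells of a type and less RNA per cell cannot be told apart.

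Depth differed between the groups and bears on every value given here. The Naive libraries held 41971752 to 47809779 estimated counts and the OFBI libraries 1173472 to 3410476, a 16.7-fold difference of the means, with OFBI replicate 3 the shallowest. Many low values were multiples of 4, so 4 counts were taken as 1 sequenced fragment. The corneal epithelial keratin gene Krt12 was abundant in all 6 libraries, at 8869 to 11102 CPM in Naive and 22860 to 28769 CPM in OFBI (counts scaled to the size of each library, with TMM factors). Kera, which marks the keratocytes of the stroma, had 480, 597 and 456 counts in the Naive libraries and 0, 20 and 0 in the OFBI libraries. Scaled for depth, its log2 fold change was -2.15 and it was not called (SE 1.17, edgeR adjusted p = 0.254). Kera was called lower with limma-voom and, in edgeR, without OFBI replicate 2, and under no other alternative. The cornea marker Lum had a mean of 17.3 CPM in Naive and 9.70 CPM in OFBI libraries (log2 fold change -0.77, SE 0.54, edgeR adjusted p = 0.367). Without OFBI replicate 2 it was called lower too. Of 10 hepatocyte markers, 5 could be tested and 4 of these were called higher in OFBI, beside 8.41% of all tested genes. Among the 4 were Alb and Apoa1, which encode the plasma proteins albumin and apolipoprotein A-I. Alb had 60.9, 102 and 644 CPM in OFBI libraries and 1.03, 0.604 and 4.14 CPM in Naive libraries, and Apoa1 had 17, 16 and 70 counts against 9, 12 and 26. The summed level of the list was 142 to 1024 CPM there against 30.6 to 41.6 CPM in the Naive libraries. The part of depth and of these liver transcripts in the differences between groups was not tested, except where a value is given.

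The 250 bases before the most upstream RefSeq start (GRCm38.p6) are printed for the 4 members found in the RefSeq promoter table. These 4 are a pair with counts in all 6 libraries, Pmp22 (chr11:63128732-63128981, plus strand) and Prx (chr7:27499074-27499323, plus strand), and a pair at 0 in all OFBI libraries, Mag (chr7:30914923-30915172, minus strand) and Ncmap (chr4:135398228-135398477, minus strand). The pairs also differ in Naive level, at 20.3 and 22.8 CPM against 1.33 and 1.74 CPM, so depth bears on this split. Each window is written 5′ to 3′ on the strand of its gene. Capitals mark matches to a SOX motif (ACAAAG or ACAATG), an EGR motif (GTGGGCG) or a TEAD motif (GGAATG), searched on both strands. These are the factor families of Sox10, of the myelin regulator Egr2 and of the DNA-binding partners of Yap1.
Pmp22: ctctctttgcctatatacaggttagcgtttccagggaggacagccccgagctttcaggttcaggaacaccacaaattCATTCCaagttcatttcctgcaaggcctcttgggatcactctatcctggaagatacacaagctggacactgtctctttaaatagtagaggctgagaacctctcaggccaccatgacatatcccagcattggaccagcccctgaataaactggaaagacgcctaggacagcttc
Prx: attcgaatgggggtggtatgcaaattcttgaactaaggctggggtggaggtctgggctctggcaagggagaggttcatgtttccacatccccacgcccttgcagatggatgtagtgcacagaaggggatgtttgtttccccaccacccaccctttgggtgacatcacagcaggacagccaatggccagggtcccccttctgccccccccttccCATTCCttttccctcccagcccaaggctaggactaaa
Mag: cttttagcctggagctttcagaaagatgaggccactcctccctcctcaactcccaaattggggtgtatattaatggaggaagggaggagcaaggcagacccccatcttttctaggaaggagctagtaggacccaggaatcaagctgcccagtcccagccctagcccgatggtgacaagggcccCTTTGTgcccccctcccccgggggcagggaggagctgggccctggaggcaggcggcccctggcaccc
Ncmap: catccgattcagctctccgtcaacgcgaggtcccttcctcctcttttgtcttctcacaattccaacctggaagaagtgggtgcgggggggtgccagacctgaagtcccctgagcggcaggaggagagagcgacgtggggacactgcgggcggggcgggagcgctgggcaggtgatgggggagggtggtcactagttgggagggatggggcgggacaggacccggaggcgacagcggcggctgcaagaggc

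Pmp22 and Prx each held 1 TEAD match, which ended 168 and 32 bases before the start. Mag held 1 SOX match, which ended 62 bases before it, and Ncmap held no match to these motifs. A SOX match was present in 25.4% of 27025 promoter windows of this length, a TEAD match in 12.6% and an EGR match in 7.04%. The matches are letters in a window, and no binding was measured. The windows had a GC content of 48.8% in Pmp22, 56.4% in Prx, 61.2% in Mag and 66.0% in Ncmap, beside a median of 52.0% over all windows.

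All 8 genes had counts in each Naive library. In Naive corneas Mbp stood far above the others, at 33.7 CPM per kilobase of merged exons (range 31.3 to 36.8, n = 3), followed on this scale by Pmp22 at 8.64, Prx at 4.09 and Sox10 at 1.45. The other members lay below 1 CPM per kilobase, with Ncmap at 0.781 (range 0.532 to 0.920), Gap43 at 0.606 (range 0.441 to 0.781), Mag at 0.326 and Cdh19 at 0.168. The ranges of neighbours in this order did not overlap, except those of Ncmap and Gap43. In OFBI corneas the order of the means was the same for the 4 genes that had counts, at 17.8 for Mbp, 9.05 for Pmp22, 4.71 for Prx and 3.03 CPM per kilobase for Sox10, but the ranges of all neighbours overlapped. Mbp made up 82.1% to 86.5% of the CPM summed over the 8 genes in Naive libraries and 57.6% to 78.3% in OFBI libraries. The Mbp gene also gives rise to golli transcripts, which are made outside myelin too, and the count tables do not separate its 16 annotated transcripts.

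**Figure D1:**
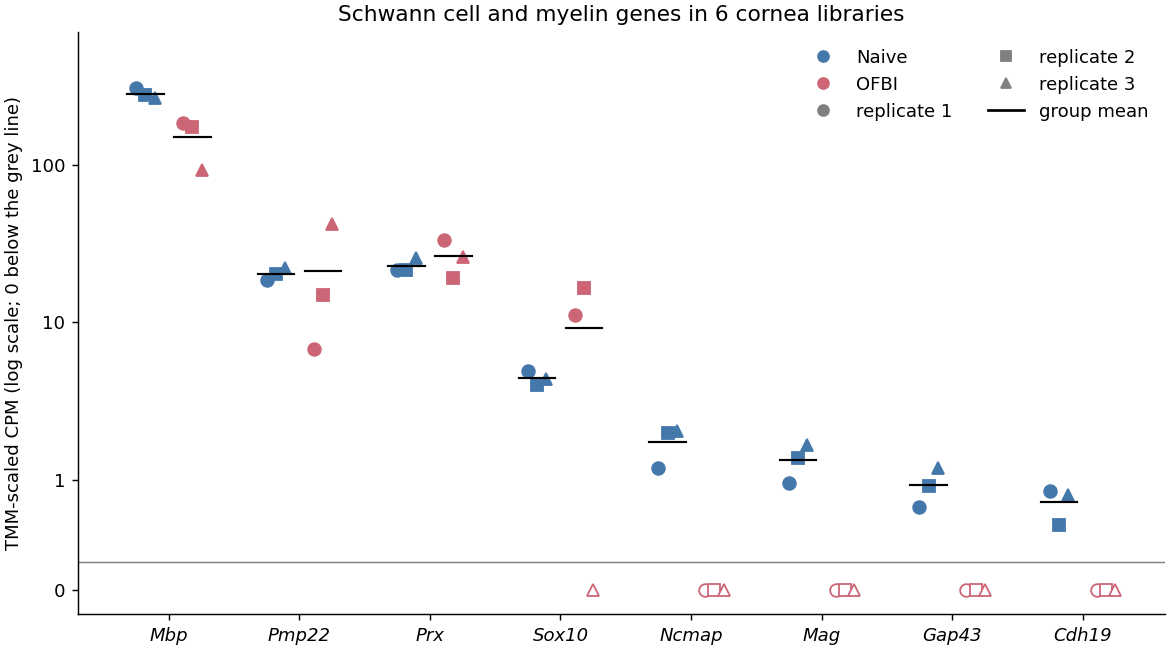
TMM-scaled CPM of the 8 genes (log axis, with values of 0 drawn apart at the bottom) in the 3 Naive and 3 OFBI libraries, with a symbol for each library and a bar for each group mean above 0. Mbp was lower in all OFBI libraries, Pmp22 and Prx overlapped between the groups, Sox10 was at 0 in OFBI replicate 3, and Ncmap, Mag, Gap43 and Cdh19 were at 0 in all 3 OFBI libraries.

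Of the 8 genes, 5 were called lower in OFBI, 0 higher, and 3 did not pass (quasi-likelihood F test of edgeR, with p adjusted by Benjamini-Hochberg over all 13941 tested genes and a threshold of 0.05). In the background, 10.4% of all tested genes were called lower, 8.41% higher and 18.8% in either direction. Of the 5 genes, Mbp alone had counts in OFBI libraries. The other 4, Mag, Ncmap, Cdh19 and Gap43, were at 0 there, as were 5.96% of all tested genes, and they entered the test through their Naive counts alone. DESeq2 called 2 of the 8 lower, Mbp and Ncmap, beside 13.1% of all genes, and 0 higher beside 13.3%. The limma-voom fit called 3 lower, Mbp, Ncmap and Mag, beside 8.95% of all genes, and 0 higher beside 7.31%. Scaled by library size alone, the median log2 fold change of all tested genes moved from -0.20 to -0.40, 14.6% of them were called lower and again 5 of the 8.

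The number called depended on single libraries. Without OFBI replicate 1 or 2, 0 of the 8 passed, beside 7.77% and 11.5% of all genes called lower, and 5 of the 8 had an unadjusted p under 0.05 in each case. Without OFBI replicate 3, 3 were called lower, Mbp, Mag and Ncmap, beside 13.8%. Without Naive replicate 1, 2 or 3, 4 of the 8 could be tested and 0 were called, beside 0.0744%, 0% and 0.066% of all genes called lower, and 1 had an unadjusted p under 0.05 in each case (edgeR).

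Mbp encodes myelin basic protein, which holds the cytoplasmic faces of compact myelin together (chromosome 18, 82475146 to 82585637, plus strand, GRCm38). Its Naive values were 312, 279 and 265 CPM in replicates 1, 2 and 3, and its OFBI values 185, 174 and 92.6 CPM. Every OFBI value lay below every Naive value, as it did for 29.9% of all tested genes, and OFBI replicate 3 was the lowest. The group means were 285 ± 23.8 CPM in Naive and 151 ± 50.5 CPM in OFBI corneas (SD, n = 3), so that Mbp was 1.88-fold lower (log2 fold change -0.91, SE 0.26, edgeR adjusted p = 0.0489). The OFBI values rest on 599, 543 and 99 counts. At the mean Naive level, 2119 counts of Mbp would fall in the 3 OFBI libraries together, and 1241 were found.

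The adjusted p of Mbp lay close to the threshold. Without OFBI replicate 1 or 2 its log2 fold change was -1.10 and -1.05 and did not pass (edgeR adjusted p = 0.0644 and 0.0650). Without OFBI replicate 3 it was -0.68 and passed (edgeR adjusted p = 0.0126). Without Naive replicate 1, 2 or 3 it was -0.81, -0.89 and -0.93 and did not pass (edgeR adjusted p = 0.201, 0.180 and 0.156). Mbp was lower under all 17 alternatives, by a log2 fold change between -1.11 and -0.68, and 9 of them lost the call. Removal of a GC and length trend left it at -0.84 (edgeR adjusted p = 0.0492). As a description over the 6 libraries, which share the depth difference, the genes most like Mbp were St8sia6, Zmym2 and Psmc5, with Pearson r of 0.9989, 0.9985 and 0.9982. Of 7707 genes compared, 394 had an r of at least 0.95 with Mbp.

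Pmp22 encodes peripheral myelin protein 22, a membrane protein of compact myelin that fibroblasts and epithelia also make (chromosome 11, 63128982 to 63159547, plus strand). Its Naive values were 18.5, 20.2 and 22.3 CPM and its OFBI values 6.80, 15.0 and 42.1 CPM. OFBI replicates 1 and 2 lay below all Naive libraries and OFBI replicate 3 above all of them. The means were 20.3 ± 1.92 CPM in Naive and 21.3 ± 18.5 CPM in OFBI corneas (SD, n = 3), with a log2 fold change of -0.02 (edgeR adjusted p = 0.983, SE 0.60). The difference of the means was thus far smaller than the spread between the OFBI pools.

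The Pmp22 counts of the OFBI libraries did not follow their depth, at 22, 47 and 45 in replicates 1, 2 and 3. Set against the mean of the other two OFBI libraries, replicate 3 had a log2 ratio of 0.38 for Pmp22 counts and of -1.53 for total counts. It was -2.53 for Mbp, -1.58 for Prx and 1.09 for the summed hepatocyte markers, so Prx followed the depth, Mbp lay below it and Pmp22 above it. The part of liver transcripts in the Pmp22 count was not tested. Without OFBI replicate 3 the log2 fold change of Pmp22 was -0.91 and did not pass (SE 0.35, edgeR adjusted p = 0.104). The genes most like Pmp22 over the 6 libraries were Celf1, Dennd2a and Copb1, with Pearson r of 0.9945, 0.9941 and 0.9923, again as a description.

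Prx encodes periaxin, a scaffold protein that links the outer Schwann cell membrane to the surrounding basal lamina, and which lens fibres make too (chromosome 7, 27499324 to 27520214, plus strand). Its Naive values were 21.5, 21.5 and 25.5 CPM and its OFBI values 33.4, 19.2 and 26.2 CPM. The groups overlapped, with OFBI replicate 1 the highest and OFBI replicate 2 the lowest of the 6 libraries. Means of 22.8 ± 2.34 CPM in Naive and 26.3 ± 7.09 CPM in OFBI corneas (SD, n = 3) gave a log2 fold change of 0.20 (edgeR adjusted p = 0.672, SE 0.29). Removal of a GC and length trend moved it to -0.13, and without OFBI replicate 1 it was -0.07.

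Of 8 lens markers, the crystallin genes Cryaa and Crybb2 were called higher in OFBI, beside 8.41% of all tested genes, and the other 6 did not pass. Of these 6, the crystallin gene Cryba1 and the lens filament genes Bfsp1 and Bfsp2 had log2 fold changes of -0.66, -0.67 and -1.38. Bfsp2 was called lower without OFBI replicate 1. The summed lens level, most of it Cryaa and Crybb2, was 566 to 804 CPM in OFBI against 234 to 259 CPM in Naive libraries. Its part in the Prx level was not tested. An annotated antisense gene, Gm15541, overlaps Prx, and the strand setting of the counting is not given in the sources used here, so the Prx counts may include reads of it. The genes most like Prx over the 6 libraries were Slc12a5, Prr3 and Alyref, with Pearson r of 0.9883, 0.9854 and 0.9841.

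The balance between Mbp, Pmp22 and Prx varied more among OFBI than among Naive libraries, but the OFBI ratios rest on few counts. Pmp22 had 22, 47 and 45 counts and Prx 108, 60 and 28 in the OFBI libraries. In the Naive libraries Pmp22 had 936 to 1013 counts and Prx 996 to 1159. The part of counting error in the wider OFBI spread was not tested. The ratio of Mbp to Pmp22 counts, which no scaling of libraries alters, was 16.9, 13.8 and 11.9 in the Naive and 27.2, 11.6 and 2.20 in the OFBI libraries. That of Prx to Pmp22 was 1.16, 1.06 and 1.14 in the Naive and 4.91, 1.28 and 0.622 in the OFBI libraries. That of Mbp to Prx was 14.5, 13.0 and 10.4 in the Naive and 5.55, 9.05 and 3.54 in the OFBI libraries. The groups overlapped for both ratios to Pmp22, whereas every OFBI ratio of Mbp to Prx lay below every Naive ratio. Mbp alone was separated in the same way, as were 29.9% of all tested genes. How often ratios of other genes separate the groups was not tested.

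Sox10, the lineage factor of Schwann cells and of melanocytes (chromosome 15, 79154908 to 79165240, minus strand), had 4.94, 4.01 and 4.34 CPM in the Naive libraries. In the OFBI libraries it had 11.1, 16.6 and 0 CPM, from 36, 52 and 0 counts. OFBI replicates 1 and 2 lay above all Naive libraries and OFBI replicate 3 below them. The means were 4.43 ± 0.471 CPM in Naive and 9.26 ± 8.48 CPM in OFBI corneas (SD, n = 3), with a log2 fold change of 1.14 (edgeR adjusted p = 0.441, SE 0.93).

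The 0 of Sox10 in OFBI replicate 3 carries little weight. At the mean Naive level that library would hold 4.74 counts of Sox10, or 1.18 fragments, and a count of 0 there allows up to 11.2 CPM at a limit of 3 fragments, which is above all Naive values. Without OFBI replicate 3, Sox10 was called higher, with a log2 fold change of 1.64 (edgeR adjusted p = 0.0156, SE 0.31), as were 10.8% of the genes tested without that library. The log2 fold change of Sox10 was -0.31 with limma-voom (adjusted p = 0.857), the only alternative in which it was negative.

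Ncmap encodes a protein of non-compact myelin in peripheral nerve (chromosome 4, 135369576 to 135398227, minus strand). Its Naive libraries had 60, 92 and 93 counts, or 1.19, 1.98 and 2.05 CPM, and all 3 OFBI libraries had 0. Counts of 0 in all 3 OFBI libraries allow up to 1.62 CPM over the group at 3 fragments, so Ncmap, at 1.74 ± 0.481 CPM in Naive corneas (SD, n = 3), was at least 1.08-fold lower (edgeR adjusted p = 0.0310). At the mean Naive level 12.9 counts, or 3.23 fragments, of Ncmap would fall in the 3 OFBI libraries together. These limits cover counting error only.

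Mag encodes myelin-associated glycoprotein, which sits in the Schwann cell membrane that faces the axon (chromosome 7, 30899176 to 30914873, minus strand). Its Naive values were 0.948, 1.38 and 1.65 CPM, from 48, 64 and 75 counts, and the 3 OFBI libraries had 0 (edgeR adjusted p = 0.0338). The Naive mean of 1.33 ± 0.355 CPM (SD, n = 3) lay under the limit of 1.62 CPM, so a difference in Mag was not detectable at the OFBI depth on counting grounds, although the model called it.

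Cdh19 encodes a cadherin of the Schwann cell lineage (chromosome 1, 110888326 to 110977584, minus strand), and Gap43 a protein of growing axon tips that Schwann cells also make after injury (chromosome 16, 42248442 to 42340651, minus strand). Cdh19 had 0.849, 0.518 and 0.793 CPM in the Naive libraries, from 43, 24 and 36 counts, and 0 in the OFBI libraries (edgeR adjusted p = 0.0438). Gap43 had 0.672, 0.906 and 1.19 CPM in the Naive libraries, from 34, 42 and 54 counts, and 0 in the OFBI libraries (edgeR adjusted p = 0.0402). Both Naive means, 0.720 ± 0.178 CPM for Cdh19 and 0.922 ± 0.259 CPM for Gap43 (SD, n = 3), lay under the same limit, and no fold is given for Mag, Cdh19 or Gap43.

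At their mean Naive levels the 3 OFBI libraries together would hold 2.46 fragments of Mag, 1.71 of Gap43 and 1.34 of Cdh19. Such zeros were common among genes of this level. Of the 1089 tested genes with a Naive mean from that of Cdh19 to that of Ncmap, 392 (36.0%) were at 0 in all OFBI libraries and 338 (31.0%) were called lower. With counts divided by 4, these 4 genes no longer passed the filter on low counts, and 1 of the 4 members left, Mbp, was called lower, as were 10.4% of the genes left. After thinning of the Naive libraries to 1 OFBI depth, that of replicate 1, 4 members were tested and 0 called, beside 4.85% of all genes called lower and 9.38% higher.

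**Figure D2:**
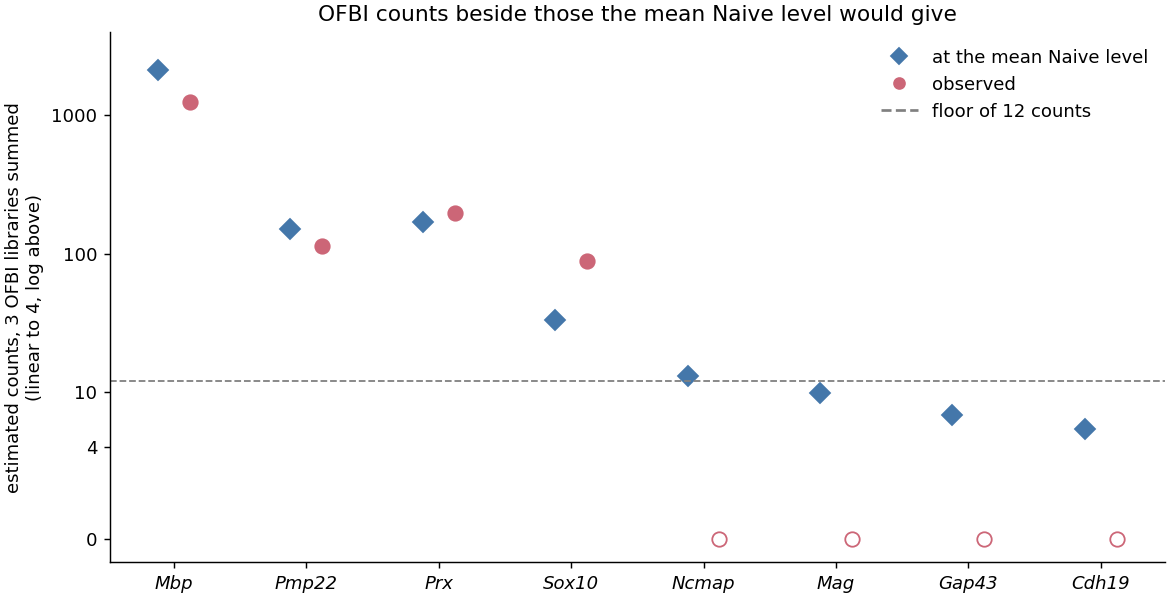
Counts expected in the 3 OFBI libraries together if each gene were at its mean Naive level, beside the counts observed there, for the 8 genes. Mbp had 1241 counts where 2119 would fall and Sox10 had 88 where 32.9 would fall, while the 4 genes with 0 counts had expected values of at most 12.9 counts.

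**Figure D3:**
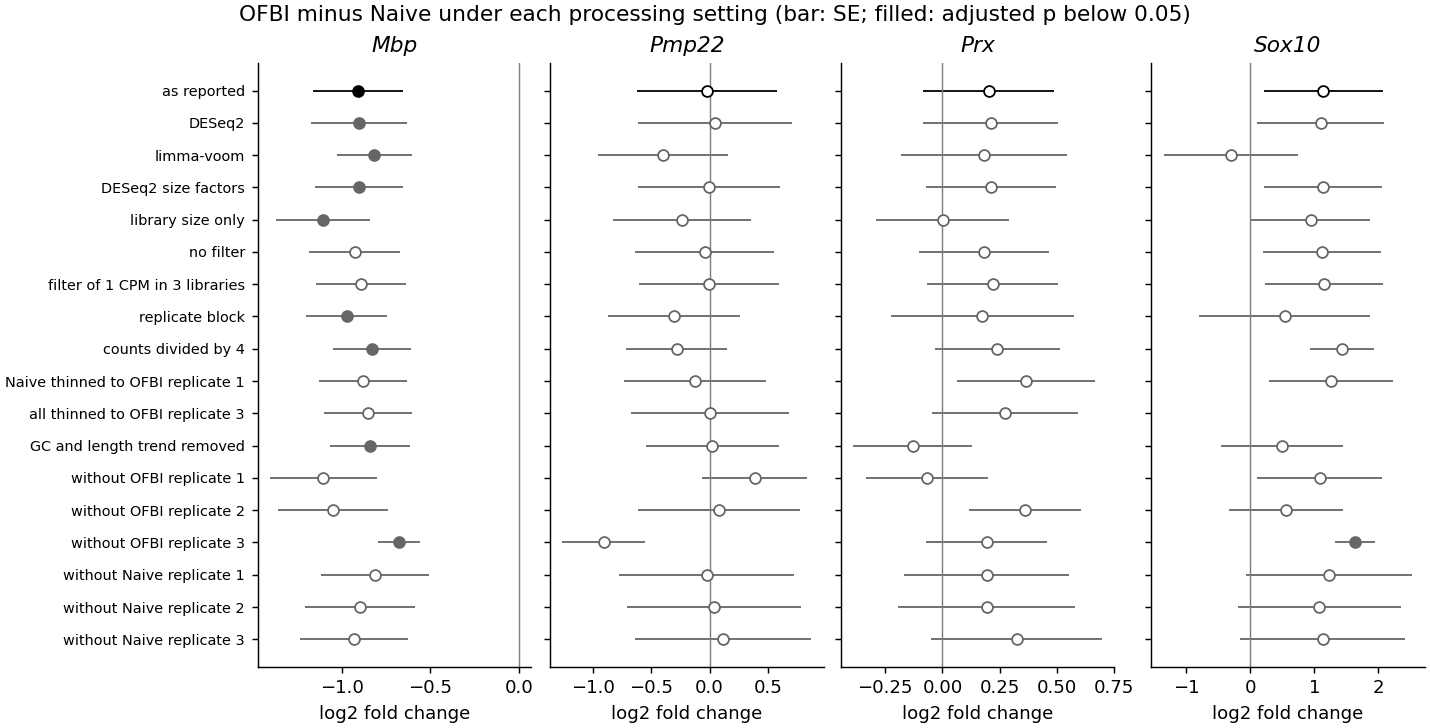
Log2 fold change of OFBI against Naive (horizontal axis) for the 4 members with counts in OFBI libraries, in the fit as reported and under 17 alternatives, with filled symbols for an adjusted p below 0.05. Mbp stayed between -1.11 and -0.68, whereas Pmp22 ran from -0.91 to 0.38 and Prx from -0.13 to 0.37, on both sides of 0.

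Other genes of the myelin sheath were called in both directions. Of all tested genes, 10.4% were called lower and 8.41% higher. Of 17 further tested genes for myelin proteins and lipids, 4 were called lower, of which Cd9 alone had counts in OFBI libraries, and 1 higher. Their median fitted log2 fold change was -0.70, beside -0.20 for all tested genes. With genes at 0 in all OFBI libraries set to their bound it was -0.06, beside -0.11 for all tested genes treated in the same way. That bound is 0, or no change, where the Naive mean lay under the limit, as for 3 of the 4 called lower. Cd9, a tetraspanin of many cell types, had 271, 271 and 230 CPM in Naive and 135, 110 and 52.4 CPM in OFBI libraries and fell (log2 fold change -1.35, SE 0.31, edgeR adjusted p = 0.0300), and with a GC and length trend taken out its log2 fold change was -1.18 and just missed the threshold (adjusted p = 0.0656). The myelin lipid enzymes Fa2h and Ugt8a and the node protein gene Gldn were called lower at 0 in all OFBI libraries, each with a Naive mean under the limit. Cadm4, a Schwann cell adhesion molecule that binds axons, rose from 85.5 to 86.9 CPM in Naive to 122 to 128 CPM in OFBI libraries (log2 fold change 0.53, SE 0.13, edgeR adjusted p = 0.0344). Every OFBI value of Cadm4 lay above every Naive value, as it did for 16.4% of all tested genes, but the log2 fold change was -0.05 once that trend was removed. The summed level of the 20 further genes of this list, tested or not, was 3294 to 3520 CPM in Naive and 2755 to 3947 CPM in OFBI libraries. Most of it was Mal, at 2173 to 2441 CPM in Naive and 1987 to 2956 CPM in OFBI libraries, so this sum says little about the others.

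Of 16 further regulators of Schwann cells, 3 were called higher and 1 lower, beside 8.41% and 10.4% of all tested genes. The median log2 fold change of the 16 was 0.62, beside -0.20 for all tested genes. Erbb3, a receptor for axonal neuregulin that epithelia also make, had 484, 462 and 437 CPM in Naive and 304, 311 and 196 CPM in OFBI libraries and fell (log2 fold change -0.76, SE 0.19, edgeR adjusted p = 0.0371). Yap1, a transcriptional co-activator, rose from 317, 268 and 274 CPM in Naive to 466, 884 and 1000 CPM in OFBI libraries (log2 fold change 1.45, SE 0.28, edgeR adjusted p = 0.0202). Nab2, a cofactor of the Egr proteins, rose too (log2 fold change 1.31, SE 0.25, edgeR adjusted p = 0.0198), and without the GC and length trend its log2 fold change was 0.74 and did not pass (adjusted p = 0.0673). The third, Tfap2a, a factor of Schwann cell precursors and of epithelium, rose by 0.57 on the log2 scale (SE 0.16, edgeR adjusted p = 0.0481). Egr2, which drives myelination, had a mean of 0.886 CPM in Naive and 2.17 CPM in OFBI libraries. It did not pass (log2 fold change 1.13, SE 1.00, edgeR adjusted p = 0.481). These levels rest on 40, 58 and 28 counts in Naive and 9, 0 and 4 in the shallower OFBI libraries.

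Of 14 further genes of non-myelinating and repair Schwann cells, Foxd3 was called higher and Gfap lower, beside 8.41% and 10.4% of all tested genes. Gfap, an intermediate filament gene of non-myelinating Schwann cells and astrocytes, had 5.16, 5.39 and 5.22 CPM in Naive libraries and 0 in all OFBI libraries, which is at least 3.25-fold lower (edgeR adjusted p = 0.0191). Foxd3, a neural crest factor, had 20, 11 and 28 counts in Naive and 24, 4 and 16 in the shallower OFBI libraries (log2 fold change 4.15, SE 0.96, edgeR adjusted p = 0.0294). Without that trend its log2 fold change was 2.90 and did not pass (adjusted p = 0.0583), and without OFBI replicate 3 it was 3.36 and passed (adjusted p = 0.0328). S100b, a widely used Schwann cell marker, and Ngfr, a neurotrophin receptor gene raised in repair Schwann cells, did not pass (edgeR adjusted p = 0.468 and 0.689). Ngfr had 152 to 176 CPM in Naive and 129 to 226 CPM in OFBI libraries.

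Of 14 further axon and axon growth genes, 2 were called higher and 0 lower, beside 8.41% and 10.4% of all tested genes. The median log2 fold change of the 14 was 0.49, beside -0.20 for all tested genes. Both called genes have products that, like that of Gap43, lie at the membrane of growing axons, and both are also made outside neurons. Marcks had 198, 192 and 201 CPM in Naive and 876, 659 and 1070 CPM in OFBI libraries and rose (log2 fold change 2.14, SE 0.19, edgeR adjusted p = 0.00543). Basp1 had 223, 209 and 229 counts in Naive and 57, 30 and 60 counts in OFBI libraries and rose on the CPM scale (log2 fold change 2.52, SE 0.67, edgeR adjusted p = 0.0415). Without the GC and length trend the log2 fold change of Basp1 was 2.18 and did not pass (adjusted p = 0.0556), and without OFBI replicate 3 it was 1.54 and passed (adjusted p = 0.0241). Gap43 was at 0 in the same OFBI libraries. In Naive corneas its counts were 34 to 54 and those of Basp1 209 to 229.

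The calls in these 4 lists of myelin, Schwann cell and axon genes, 13 in all, also changed with single libraries, in both directions. Without OFBI replicate 1, Cadm4, Erbb3, Basp1, Foxd3 and Tfap2a did not pass, without OFBI replicate 2 Cd9 did not, and without OFBI replicate 3 Tfap2a did not, with edgeR adjusted p between 0.0538 and 0.0852. Of Fa2h, Ugt8a and Gldn, none passed without OFBI replicate 1, and Gldn alone passed without OFBI replicate 2 or 3. Without Naive replicate 1, 2 or 3, Marcks had an adjusted p of 0.0440, 0.0518 and 0.0461, and no other gene of these lists passed (edgeR). Calls were gained as well, 4 without OFBI replicate 1, among them the neurofilament gene Nefl lower and the neuronal tubulin gene Tubb3 higher, 6 without OFBI replicate 2, among them the myelin genes Drp2 and Cldn19 lower, and 3 without OFBI replicate 3, Gjc3 and Uchl1 higher and Cdh2 lower. Tubb3 had 0, 4 and 118 counts in OFBI replicates 1, 2 and 3, and Gjc3 had 60, 0 and 0. The gained calls of these genes thus rest largely on 1 OFBI library each. With limma-voom Nefl was also called lower, so that this fit had 2 axon genes higher and 1 lower. With the Naive libraries thinned to OFBI replicate 1, 5 of the 13 calls were lost, those of Basp1, Fa2h, Foxd3, Gldn and Ugt8a. Counts divided by 4 lost 4 calls and gained 3 lower. All libraries thinned to OFBI replicate 3 lost 6 and gained 1 lower. Foxd3 could not be tested in these depth settings. A fit with the replicate number as a block lost 9.

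**Figure D4:**
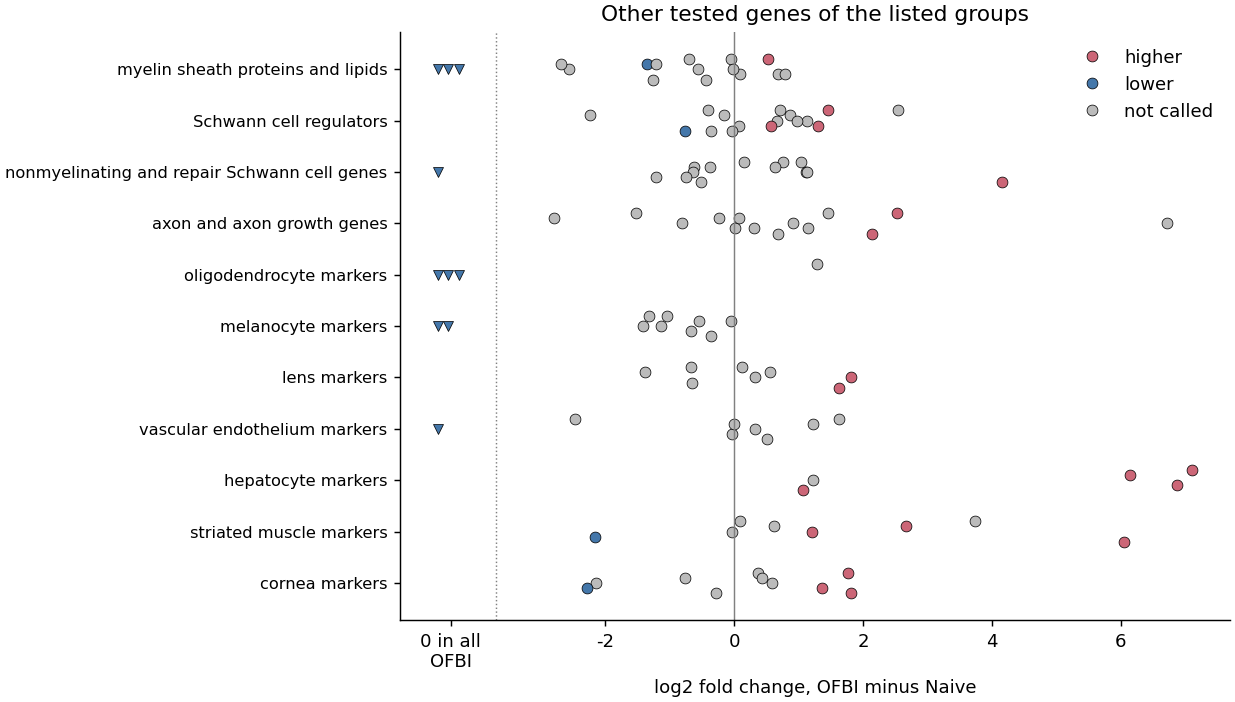
Log2 fold change of OFBI against Naive (horizontal axis) for the tested genes of the lists beside the 8 members, 1 point per gene and 1 line per list, with colours for the call. Lists of myelin sheath and Schwann cell genes hold points on both sides of 0, and hepatocyte markers lie to the right.

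Markers of other cell types that make some of the 8 genes were counted in the same libraries. Each count of calls below stands beside 10.4% of all tested genes called lower and 8.41% higher. Oligodendrocytes, which make Mbp and Mag in the central nervous system, are marked by 10 genes, of which 4 could be tested, 3 were called lower (Mobp, Cldn11 and Ermn) and 9 were at 0 in all OFBI libraries. Their summed level was 8.24 to 9.96 CPM in Naive and 1.28 to 8.42 CPM in OFBI libraries. In the Naive libraries Mbp had 265 to 312 CPM and Mag 0.948 to 1.65 CPM, so the sum lay below Mbp and above Mag. These levels are not scaled to gene length. Mobp, a myelin gene of oligodendrocytes, had 217, 196 and 153 counts in Naive and 0 in OFBI libraries and was at least 2.45-fold lower (edgeR adjusted p = 0.0221), and Mog, which defines these cells, had 18, 4 and 4 counts in Naive and 0 in OFBI libraries. Cldn11, a tight junction gene of myelin, had 1.11, 1.51 and 1.17 CPM in Naive and 0 in OFBI libraries, with a Naive mean under the limit (edgeR adjusted p = 0.0305). The part of oligodendrocyte transcripts in the Mbp and Mag counts was not tested.

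Melanocytes, which make Sox10, are marked by 10 tested genes, of which 2 were called lower and 0 higher. The pigment enzyme gene Tyr was at 0 in all OFBI libraries and at least 3.75-fold lower (edgeR adjusted p = 0.0195), and Slc45a2 at least 1.39-fold lower (edgeR adjusted p = 0.0249). The summed melanocyte level was 221 to 233 CPM in Naive and 44.9 to 166 CPM in OFBI libraries, but its members differed. Pmel had 38.8, 42.2 and 46.9 CPM in Naive and 44.2, 40.3 and 11.2 CPM in OFBI libraries (log2 fold change -0.37, SE 0.42, edgeR adjusted p = 0.600). Dct had 86.2, 87.8 and 85.1 CPM in Naive and 48.2, 59.2 and 13.1 CPM in OFBI libraries (log2 fold change -1.05, SE 0.43, edgeR adjusted p = 0.141). Of 8 tested vascular endothelium markers, 1 was called lower, Tek, with a Naive mean under the limit. Pecam1, an adhesion molecule of vessel walls, had 3.38, 3.23 and 3.64 CPM in Naive and 8.35, 14.7 and 8.42 CPM in OFBI libraries and did not pass (log2 fold change 1.63, SE 0.49, edgeR adjusted p = 0.0570). The summed vessel level overlapped, at 35.8 to 41.7 CPM in Naive and 21.5 to 67.9 CPM in OFBI libraries. The part of melanocyte and vessel transcripts in the Sox10, Prx and Pmp22 levels was not tested. Of 8 striated muscle markers 3 were called higher and 1 lower, with the myosin genes Myh2 higher and Myh4 lower (edgeR adjusted p = 0.0118 and 0.0227). Myh2 had 28.7 to 29.1 CPM in Naive and 59.9 to 74.5 CPM in OFBI libraries, and Myh4 had 60.7 to 70.5 CPM and 3.74 to 18.9 CPM. Of 10 cornea markers 3 were called higher, the keratin genes Krt12, Krt5 and Krt14, and 1 lower, Slc4a11. Without Naive replicate 1, 2 or 3, no marker of oligodendrocytes, melanocytes, vessels, hepatocytes or striated muscle was called (edgeR), while 6 of 7 tested hepatocyte markers had an unadjusted p under 0.05 in each case.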

How the data were processed

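Total RNA of pooled mouse corneas was sequenced, with 3 libraries per group, from a stranded kit, per the labels' protocols. FastQC, HISAT2, StringTie, DESeq2 and the GRCm38 build appear, without versions or roles, in the submitters' processing notes. The authors deposited estimated counts per gene as whole numbers, not scaled for depth, so no rounding was needed. That 4 counts stand for 1 fragment was read from the values. The annotation release and strand setting of the counting are not given.

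Of 22040 rows, 64 that shared 31 symbols were summed, which left 22007 symbols. They were tested with edgeR 4.0.16 (R 4.3.3, filterByExpr, TMM, quasi-likelihood fit on group, two-sided, Benjamini-Hochberg adjustment, threshold 0.05), with DESeq2 1.42.0 and limma 3.58.1 as alternatives. The edgeR fit was run on simulated data, and the DESeq2 and limma-voom fits were not. The SE is the log2 fold change divided by the square root of F. The labels do not say that the pools came from separate animals, though the design text calls them biological replicates, so p-values measure the spread between these pools. TMM factors were 0.916 to 1.08.

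Coordinates and merged exon lengths are from GENCODE M21 (GRCm38) and promoters from RefSeq (GRCm38.p6). A limit of 3 fragments, or 12 counts, was used for groups at 0. Likeness was Pearson r over 6 libraries of log2 CPM, among genes with at least 12 counts in every library and a mean of at least 5 CPM, naming 3 genes per member. In each list, the 2 genes with the smallest p were named, beside markers fixed by name, of which some are not reported here. Further called genes of the lists were named after their values were seen. The members, the 11 lists and these rules were chosen with earlier results of these data known.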

Additional observations from a re-analysis of the deposited data

How the results depend on the processing

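The direction of Mbp was the same under all 17 alternatives and its call was lost under 9. Pmp22 turned to 0.0488 on the log2 scale with DESeq2, to 0.0040 after thinning of all libraries to OFBI replicate 3 and to 0.0244 with a GC and length trend removed, and ran from -0.91 to 0.38 with 1 library left out. Prx turned to -0.13 with that trend removed and ran from -0.0671 to 0.36 with 1 library left out, and Sox10 turned to -0.31 with limma-voom. The trend was estimated on genes with at least 12 counts in every library, a setting chosen after seeing the data.

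Of the 8 members, DESeq2 called 2 lower, limma-voom 3 and no filter on low counts 1. The shares of all genes called lower were 13.1%, 8.95% and 5.37%. A filter of 1 CPM in 3 libraries called 2 of 6 tested members lower, beside 8.24% of all genes. Counts divided by 4 called 1 of 4, beside 10.4%. The Naive libraries thinned called 0 of 4 and all thinned 0 of 3, beside 4.85% and 4.53%. With 1 library left out, 0 to 3 members were called lower and 0 to 1 higher. The shares of all genes were then 0% to 13.8% and 0% to 10.8%. Over all genes, DESeq2 called 1854 of 13941 higher and no filter 910 of 16934 lower. The Naive libraries thinned called 567 of 11691 lower and all thinned 439 of 9697. With 1 library left out, 0 to 1611 were called higher and 0 to 2065 lower. Without Naive replicate 2, edgeR called 0 in either direction, beside 2441 with an unadjusted p under 0.05.

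The labels give no pairing of the libraries. The same-numbered correlations of deviations from the group means were -0.0027, -0.0175 and 0.0078, and the highest of any pair was 0.0219. With OFBI libraries this shallow, values near 0 cannot show that there was no pairing. A fit with the replicate number as a block called 540 genes (3.87%) higher and 253 (1.81%) lower, and 1 member, Mbp, lower. Depth limits Mag, Cdh19 and Gap43, whose Naive means lay under the OFBI limit.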
